A study of Mus musculus with 59 samples.

Results

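Nr2f1 and Nr2f2 are mouse genes, on chromosomes 13 and 7, that were followed here through a window of build mm9 around each: chr13:78290000-78360000 (70.0 kb) for Nr2f1 and chr7:77455000-77530000 (75.0 kb) for Nr2f2. Every H3K27me3 island, H3K27ac peak and H3K4me3 peak that overlapped a window was taken, 439 of the 1107554 intervals in the 36 lists. They comprised 105 H3K27me3 islands, 230 H3K27ac peaks and 104 H3K4me3 peaks. The windows were chosen by their measured H3K27me3 island length and reads, which differed between forebrain and hindbrain K27M cultures, so that contrast is described below without a test.

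The series comes from mice in which 1 copy of the histone gene H3f3a was replaced, after Cre action, by a tagged copy that carries the K27M change (K27M) or by a tagged copy without it (WT). Brainstem tumours had the genotype Nestin-creERT2, H3f3a LSL-K27M-Tag/+ or LSL-WT-Tag/+, with the LSL-PDGFRαV544ins transgene and Trp53 flox/flox in both groups. Neurospheres are spheres of neural stem and progenitor cells grown in suspension. They were derived from forebrain (K27M) or hindbrain (K27M and WT) of e15.5 embryos and carried Nestin-cre and the H3f3a allele only. Strain, tumour age and the time of Cre induction are not given in the sources used here. In both systems the alleles are switched on in cells that express Nestin or descend from them, and the tumours were frozen whole, so other cells of the brainstem can be present. H3K27me3 was profiled in 6 K27M and 5 WT tumours and in 3 cultures of each neurosphere group, and H3K27ac in the same 11 tumours. H3K4me3 lists came from K27M tumours 2 and 6 and WT tumours 7, 9 and 10. Among the tumours with H3K27me3 lists, 4 of the 6 K27M tumours were male and 4 of the 5 WT tumours were female. Neurosphere cultures with H3K27me3 lists were all female, except that the hindbrain WT culture of experiment 3 was male. Island reads ran from 3208588 to 16323822 per H3K27me3 list. In tumours they ran from 4905241 to 14433881 in K27M and from 3208588 to 16323822 in WT, so island reads of the 2 genotypes overlapped. Tissue markers were not analysed here, since no mm9 gene annotation was used.

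Nr2f1 and Nr2f2 encode the orphan nuclear receptors COUP-TFI and COUP-TFII, transcription factors known for roles in the regional patterning of the developing brain. H3K27me3 is deposited by Polycomb repressive complex 2 and marks repressed developmental genes, often in broad domains. H3K27ac marks active promoters and enhancers, H3K4me3 marks promoters, and the K27M form of histone H3 is known to inhibit Polycomb repressive complex 2.

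The promoters of both genes are shown because all 3 marks are read here at these genes, and because the sequences differ in CpG content, a sequence feature that often goes with Polycomb and H3K4me3. The set of RefSeq promoters used here holds 2 starts for Nr2f1 and 1 for Nr2f2, all on the minus strand. Starts outside that set were not examined. The 250 bases before each start are printed 5′ to 3′ in build GRCm38.p6, with each CpG in capitals. These positions belong to another build than the windows and cannot be set beside them. The first Nr2f1 sequence is chr13:78198874-78199123, the second is chr13:78196450-78196699, and the Nr2f2 sequence is chr7:70366747-70366996.
Nr2f1, first start: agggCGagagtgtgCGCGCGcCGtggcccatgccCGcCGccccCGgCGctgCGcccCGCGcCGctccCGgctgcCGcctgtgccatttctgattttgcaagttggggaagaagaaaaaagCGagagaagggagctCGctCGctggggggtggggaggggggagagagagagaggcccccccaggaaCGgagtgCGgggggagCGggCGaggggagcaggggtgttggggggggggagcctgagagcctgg
Nr2f1, second start: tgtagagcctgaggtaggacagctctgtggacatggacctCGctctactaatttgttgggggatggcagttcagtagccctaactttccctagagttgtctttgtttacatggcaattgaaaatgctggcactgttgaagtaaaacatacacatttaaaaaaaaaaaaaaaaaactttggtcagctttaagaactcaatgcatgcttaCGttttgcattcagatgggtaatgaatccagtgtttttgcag
Nr2f2: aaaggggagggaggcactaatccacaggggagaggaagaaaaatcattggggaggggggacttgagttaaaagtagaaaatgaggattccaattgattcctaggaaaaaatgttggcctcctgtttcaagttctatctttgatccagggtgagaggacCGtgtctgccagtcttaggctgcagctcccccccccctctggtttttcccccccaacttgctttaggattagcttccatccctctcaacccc
The first Nr2f1 sequence held 22 CpG, more than 85.2% of the 32851 RefSeq promoters of this length, and 72.0% G and C. The second held 2 CpG and the Nr2f2 sequence 1, against a median of 6 over all promoters. The motif AGGTCA, the half-site of many nuclear receptors, was searched on both strands and was in none of the 3, while 14% of all promoters held it. TATAAA was also in none of the 3 (12.4% of all promoters). CCAAT occurred 2 times in the Nr2f2 sequence and in neither Nr2f1 sequence (33.8% of all promoters). These matches describe letters only, and whether CpG content at these starts goes with the marks was not tested.

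In forebrain K27M neurospheres a single H3K27me3 island ran across nearly all of the Nr2f1 window in each culture. It covered 58.0, 58.6 and 60.6 kb in the 3 cultures and held 21553, 15490 and 14842 reads. By reads it ranked 25, 36 and 51 in the lists of those cultures. In hindbrain K27M cultures the single island covered 13.0, 11.2 and 15.0 kb and held 371, 201 and 471 reads. The hindbrain islands lay to one side of the window, and every hindbrain island of either genotype fell inside chr13:78304401-78322200. That stretch of 17.8 kb was covered whole in all 3 forebrain cultures, which covered 40.2 to 42.8 kb beyond it, where hindbrain cultures had none. The lists hold reads of called islands only, so absence of an island is not absence of the mark.

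**Figure D1:**
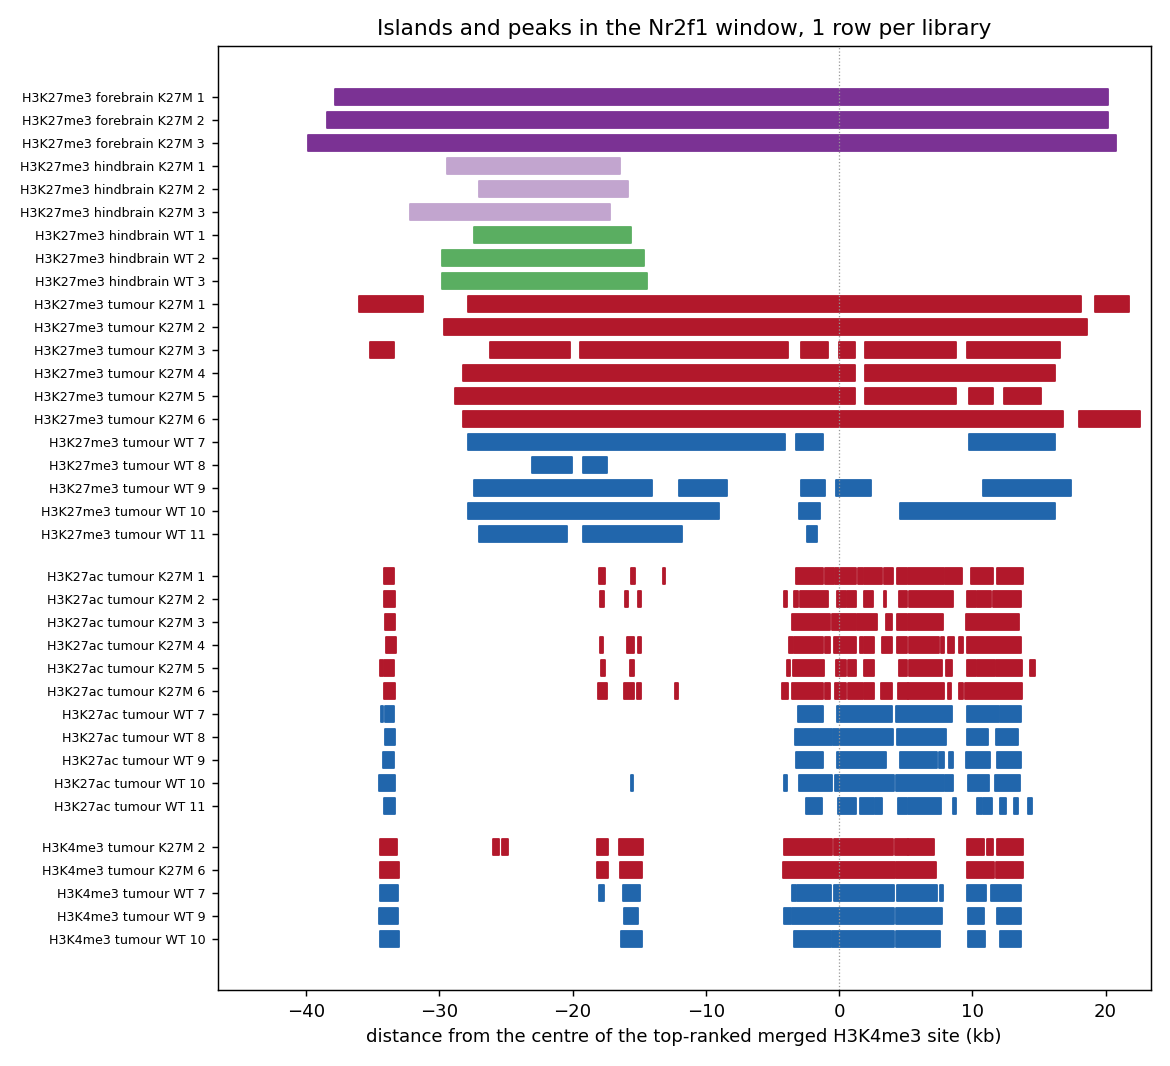
Islands and peaks of every list in the Nr2f1 window, 1 row per library, drawn as distance in kb from the centre of the top-ranked merged H3K4me3 site, with forebrain K27M in dark purple, hindbrain K27M in light purple, hindbrain WT in green, tumour K27M in red and tumour WT in blue. The hindbrain islands keep to the left of the central H3K4me3 site, the forebrain islands cover both sides, and the tumour WT islands leave most of the centre uncovered.

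The level of the mark was also expressed as RPM, the reads in the window for every 1000000 reads in autosomal islands of the same list. At Nr2f1 it was 4614, 4103 and 3481 in forebrain K27M and 69.7, 45.9 and 98.4 in hindbrain K27M cultures. The ratio of means was 57, and the groups did not overlap in length or RPM. That held for 18.5% of 2584 autosomal regions in length and 24.7% in RPM, and since this contrast chose the windows nothing is read from those shares. In a fit of edgeR over all 3363 regions called in every culture, the log2 fold of forebrain over hindbrain was 6.0 (SE 0.25) for Nr2f1, the 2nd highest of all regions.

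The Nr2f2 window differed in reads far more than in length. Its island covered 66.6, 63.4 and 65.8 kb in forebrain K27M cultures, with 37047, 29863 and 33102 reads, and ranked 7 by reads in each of the 3 lists. In hindbrain K27M cultures islands covered 55.6, 52.4 and 49.6 kb with 3124, 1744 and 1710 reads. Unlike at Nr2f1, hindbrain islands thus reached over most of the window. RPM values were 7930, 7910 and 7763 in forebrain and 587, 398 and 357 in hindbrain K27M, a ratio of means of 17.6 with no overlap. The log2 fold was 4.27 (SE 0.22), the 7th highest of the 3363 regions. Every forebrain culture was above every hindbrain K27M culture in RPM in 24.7% of 2584 autosomal regions. Since this contrast chose the windows, nothing is read from that share or from the rank at either locus.

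Nr2f2 also carried more reads than Nr2f1 in every culture. Reads in the Nr2f2 window over those in the Nr2f1 window, a ratio of 2 windows of similar width, ran from 1.72 to 2.23 in forebrain K27M, from 3.63 to 8.68 in hindbrain K27M and from 3.61 to 10.5 in hindbrain WT cultures.

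Hindbrain cultures of the 2 genotypes had Nr2f1 islands of similar length and RPM. WT cultures covered 11.8, 15.2 and 15.4 kb with 310, 748 and 953 reads, and their RPM values were 50.0, 108 and 105. These values overlap those of the hindbrain K27M cultures. As reads per kb over the median of the list, K27M cultures ran from 0.636 to 1.09 and WT cultures from 1.04 to 2.30. The log2 fold of K27M over WT was 0.08 (SE 0.38), and its sign turned when WT experiment 1 was left out (-0.22) or K27M experiment 3 was (-0.06). Since the hindbrain K27M cultures also helped choose the windows, no test is given.

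At Nr2f2 the hindbrain WT cultures were uneven. Experiments 2 and 3 covered 68.6 and 69.8 kb at 1134 and 1079 RPM, above all 3 K27M cultures, whereas experiment 1 covered 37.0 kb at 181 RPM, below all of them. The log2 fold of K27M over WT was -0.45 (SE 0.65) with all cultures and -0.93 without WT experiment 1. Without TMM factors, where the median of all regions moved from -0.11 to -1.02, Nr2f2 stood at -1.37 and Nr2f1 at -0.82. The whole list also differed between the genotypes: islands covered 81.0 to 97.7 Mb in hindbrain K27M and 192 to 217 Mb in hindbrain WT cultures, and 79.2% of 3265 autosomal regions were shorter in every K27M culture. The male WT culture of experiment 3 had 191 of its 192 Mb on autosomes, against 145 and 150 Mb in the female WT cultures of experiments 1 and 2. The Nr2f1 and Nr2f2 windows were not among regions that separate the genotypes in length. They did separate as kb of window for each 100 Mb of autosomal islands in the list. At Nr2f1 this was 28.8 to 32.9 in K27M and 8.08 to 10.1 in WT cultures. At Nr2f2 it was 109 to 141 in K27M and 25.5 to 45.7 in WT cultures. This measure divides by list lengths that themselves differ by genotype, and how many other regions separate in it was not computed.

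**Figure D2:**
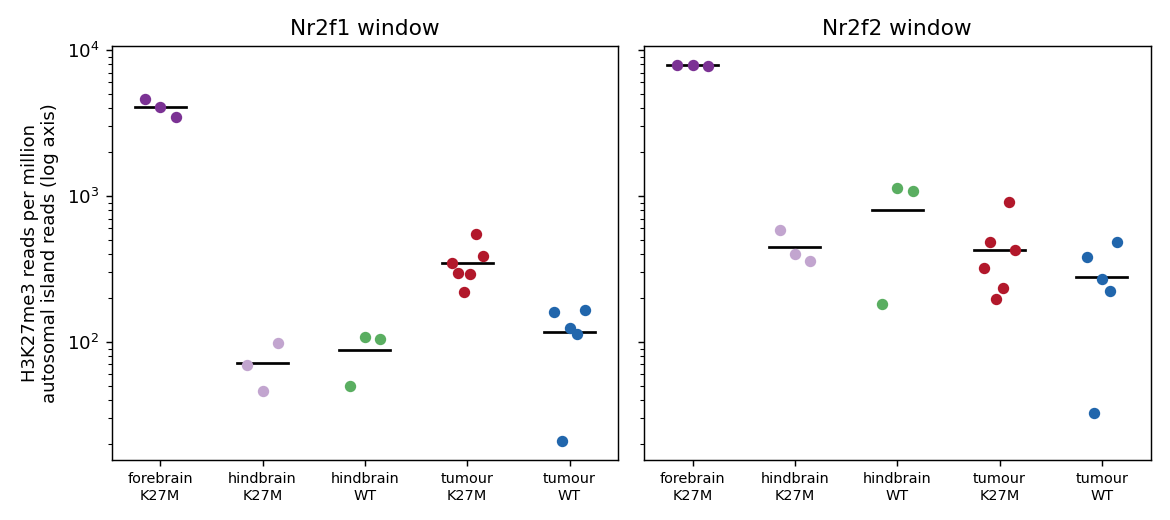
H3K27me3 reads in each window as RPM of the autosomal island reads of the same list, on a log axis, 1 point per library, with a bar at the mean of each group. Forebrain cultures stand highest at both loci, and 1 WT tumour and 1 hindbrain WT culture stand below the rest of their groups at both loci.

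In tumours the Nr2f1 window carried more H3K27me3 island length in K27M than in WT. Islands covered 53.4, 48.2, 40.4, 43.6, 41.4 and 49.6 kb in K27M tumours 1 to 6. They covered 32.2, 4.8, 28, 32.0 and 14.8 kb in WT tumours 7 to 11. Every K27M tumour was above every WT tumour, which held for 0.760% of 3027 autosomal regions called in all tumours. The means were 46.1 kb ± 5.11 (SD, n = 6) and 22.4 kb ± 12.1 (SD, n = 5), a difference of 23.7 kb (SE 5.81). A two-sided exact permutation test gave p = 0.00216, the smallest that 6 against 5 samples allow, and 0.00722 after Benjamini-Hochberg adjustment over the 10 exact tests of tumours reported here. The labels do not say that tumours or cultures came from separate animals, so each p reflects the spread among the samples as deposited, which may be technical. The windows were chosen with earlier results of these data known, so the tumour tests may not be independent of that choice. In 2 settings chosen after the data were seen, the genotypes overlapped in part. As kb of window for each 100 Mb of autosomal islands in the list, K27M tumours ran from 17.6 to 61.7 and WT tumours from 2.94 to 19.1. The difference was 21.7 (exact permutation p = 0.0130). As reads per kb over the median of the list, K27M tumours ran from 1.22 to 1.94 and WT tumours from 0.907 to 1.34. That difference was 0.51 (exact permutation p = 0.0108). Sex was unevenly split between the genotypes. Among female tumours K27M covered 41.4 and 49.6 kb and the 4 WT tumours 4.8 to 32.2 kb, a difference of 24.6 kb (exact permutation p = 0.133, where 2 against 4 samples cannot go below 0.0667).

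Most of the added length lay outside the stretch that hindbrain cultures covered. Inside that stretch of 17.8 kb K27M tumours covered 11 to 15.2 kb and WT tumours 4.8 to 13.4 kb, with means of 13.8 and 11.2 kb, and the groups overlapped. Outside it K27M tumours covered 27 to 39 kb and WT tumours 0 to 18.8 kb, with means of 32.3 and 11.2 kb and no overlap. The split was chosen after the values were seen, and the stretch is 17.8 kb of a window of 70.0 kb. How many other regions separate in such a split was not computed. WT tumour 8 had no island outside the stretch and WT tumour 11 had 3.4 kb. All 6 K27M tumours together shared 36.2 kb of covered sequence in the window, and the 5 WT tumours shared 4.40 kb, or 12.8 kb without WT tumour 8.

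Reads at Nr2f1 were likewise higher in K27M tumours. RPM values were 347, 295, 218, 294, 548 and 389 in K27M and 161, 20.9, 125, 113 and 166 in WT tumours, with no overlap, as for 5.09% of the 3027 regions. On the log2(value + 1) scale the difference was 1.79 (SE 0.58, exact permutation p = 0.00216, adjusted over the 10 tests 0.00722). These reads come from the same islands as the length and are no separate evidence. In the edgeR quasi-likelihood fit of reads in the region chr13:78307001-78359200, over all 3067 regions called in every tumour, the log2 fold of K27M over WT was 1.45 (SE 0.40, Benjamini-Hochberg adjusted p = 0.0323), and 7.11% of all regions were called higher in K27M. Over all regions 218 were higher and 143 lower in K27M. Without TMM factors, which shifts the median log2 fold from -0.10 to -0.29, the split was 158 and 300, and Nr2f1 stood at 1.26 (edgeR quasi-likelihood adjusted p = 0.0444). The call with TMM factors was lost, with edgeR adjusted p of 0.0555, 0.0557, 0.0617 and 0.0533, on leaving out K27M tumour 1, K27M tumour 5, K27M tumour 6 or WT tumour 9. That call was also lost among female tumours (edgeR adjusted p = 0.297) and over regions called in at least 3 tumours (edgeR adjusted p = 0.188). The call was kept with sex as a covariate (log2 fold 1.53, edgeR adjusted p = 0.0402), a fit with 1 male WT tumour. DESeq2 also kept it (1.48, DESeq2 adjusted p = 0.00102), as did edgeR without WT tumour 8 (1.20, edgeR adjusted p = 0.00461). Of 17 alternative settings 10 kept the call. With whole tumours, fewer cells that carry a mark and less of the mark per cell cannot be told apart.

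Nr2f2 gave no such separation. Islands covered 48.4, 64.0, 40.4, 40.0, 52.2 and 50.6 kb in K27M tumours 1 to 6 and 56.4, 7.0, 51, 52 and 41 kb in WT tumours 7 to 11. The groups overlapped, and the difference was 7.79 kb (SE 9.68, exact permutation p = 0.498). It rested on WT tumour 8, without which it was -0.83 kb. RPM values were 322, 487, 196, 232, 902 and 424 in K27M and 383, 32.4, 268, 225 and 483 in WT tumours, a log2 difference of 0.86 (SE 0.76, exact permutation p = 0.297), which was 0.20 without WT tumour 8. In the read fit chr7:77457201-77498400 stood at 0.69 on the log2 scale (SE 0.60) and chr7:77499401-77527000 at 0.24 (SE 0.43), with edgeR quasi-likelihood adjusted p of 0.490 and 0.750. Without WT tumour 8 these folds were 0.40 and 0.00. Whether the genotype difference at Nr2f1 exceeds that at Nr2f2 was not tested.

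Both windows carried H3K27ac in all 11 tumours. At Nr2f1 peaks covered 14 to 17.8 kb in K27M tumours (median 15.4) and 10.3, 13.6, 14.9, 15.0 and 16.2 kb in WT tumours, with overlap and a difference of 1.62 kb (SE 1.18, exact permutation p = 0.195). Merged over tumours, the peaks formed 10 sites, of which 4 were called in all 11 tumours, as were 15.2% of merged H3K27ac sites in the genome. The site of highest mean rank was chr13:78332351-78340722, 8.37 kb wide, followed by chr13:78340905-78345954 and chr13:78302108-78303336, all 3 called in every tumour. The site chr13:78318546-78319174, which lies inside the hindbrain island stretch, was called in 5 of 6 K27M tumours and 0 of 5 WT tumours (Fisher's exact p = 0.0152, Benjamini-Hochberg adjusted 0.621 over 14880 sites). No site in the genome (0.00%) passed that adjustment, and 363 had an unadjusted Fisher's exact p under 0.05. This site was chosen after its values were seen.

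At Nr2f2 H3K27ac peaks covered 9.70, 10.7, 9.49, 9.91, 8.07 and 11.9 kb in K27M tumours 1 to 6. WT tumours 7 to 11 had 7.28, 9.73, 5.92, 8.66 and 5.62 kb. The groups overlapped, since WT tumour 8 exceeded K27M tumours 1, 3 and 5 and WT tumour 10 exceeded K27M tumour 5. The difference was 2.51 kb (SE 0.94, exact permutation p = 0.0260, adjusted over the 10 tests 0.0519), and it does not pass the adjustment. Of 13 merged sites 3 were called in all tumours, led by chr7:77502509-77507823, 5.32 kb wide, and chr7:77495879-77497406. The third by mean rank, chr7:77509496-77510783, was called in 6 of 6 K27M and 3 of 5 WT tumours.

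H3K4me3 was also present in both windows in all 5 tumours profiled. At Nr2f1 it covered 19.6 and 19.4 kb in K27M tumours 2 and 6 and 17.2, 17.1 and 16.6 kb in WT tumours 7, 9 and 10. At Nr2f2 it covered 19.5 and 17.4 kb in K27M and 12.4, 11 and 14 kb in WT tumours. Neither pair of groups overlapped, with differences of 2.56 kb (SE 0.17) and 5.99 kb (SE 1.36). However, 2 against 3 samples cannot give an exact permutation p below 0.100, the value both reached. How many other regions separate in H3K4me3 length was not computed. As calls, 741 of 41271 merged H3K4me3 sites were in both K27M tumours and no WT tumour, and 210 were the reverse. As kb for each 100 Mb of H3K4me3 peaks in the list, a setting chosen after the data were seen, Nr2f1 overlapped, with 49.7 and 50.7 in K27M and 44.5, 50.0 and 41.7 in WT tumours (exact permutation p = 0.300). The widest H3K4me3 sites were chr13:78332431-78340817 (8.39 kb) and chr7:77501444-77507903 (6.46 kb), each called in all 5 tumours, as were 48.6% of all merged H3K4me3 sites.

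**Figure D3:**
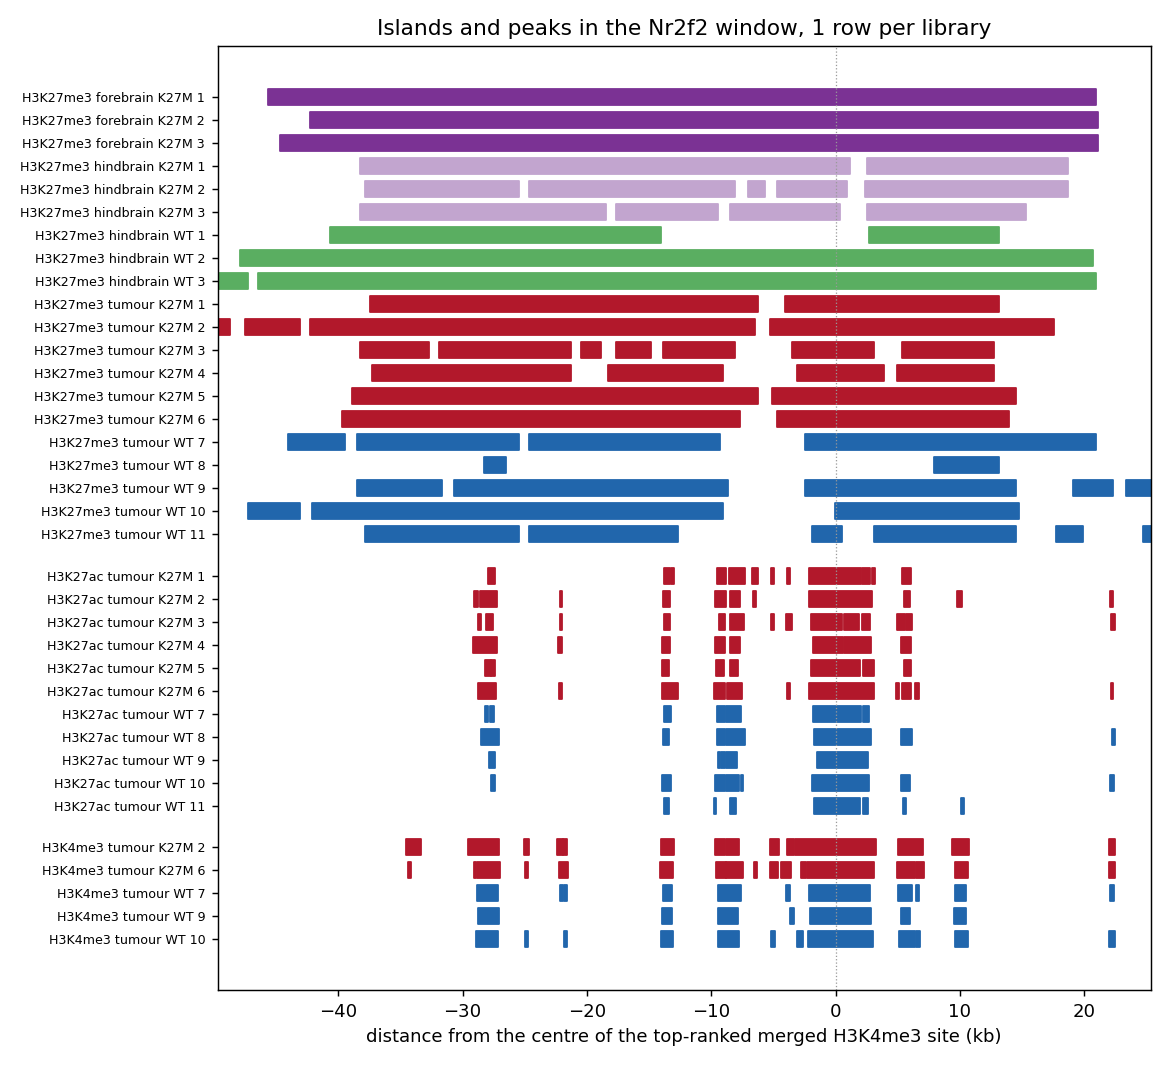
Islands and peaks of every list in the Nr2f2 window, drawn and coloured as in the map of the Nr2f1 window. Hindbrain and tumour islands reach over most of the window in nearly every library. Of 13 merged H3K27ac sites 3 were called in every tumour, and of 13 merged H3K4me3 sites 6 were called in every tumour profiled.

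The share of a tumour's H3K27ac peak length that lay inside its own H3K27me3 islands differed by genotype at both loci. At Nr2f1 it was 100%, 93.9%, 84.4%, 92.7%, 84.9% and 95.7% in K27M tumours 1 to 6 and 37.5%, 0%, 47.3%, 56.4% and 7.80% in WT tumours 7 to 11. The groups did not overlap, as in 3.25% of 554 autosomal regions with an island and H3K27ac in every tumour. The difference of means was 62.1 percentage points (SE 11.3, exact permutation p = 0.00216, adjusted over the 10 tests 0.00722). This share rises with the island length in the window, so it is not independent of the covered length above. Over the 554 regions the mean share was 63.8% in K27M and 49.5% in WT tumours.

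At Nr2f2 the share was 97.9%, 97.0%, 77.8%, 89.9%, 100% and 97.3% in K27M tumours and 77.9%, 12.1%, 87.4%, 59.0% and 54.3% in WT tumours. The groups overlapped only through K27M tumour 3, at 77.8%, which lay below WT tumours 7 and 9. The difference was 35.2 percentage points (SE 13.4, exact permutation p = 0.00649, adjusted over the 10 tests 0.0162), and 23.7 points without WT tumour 8. An overlap within a whole tumour does not show both marks on one chromosome copy or in one cell.

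**Figure D4:**
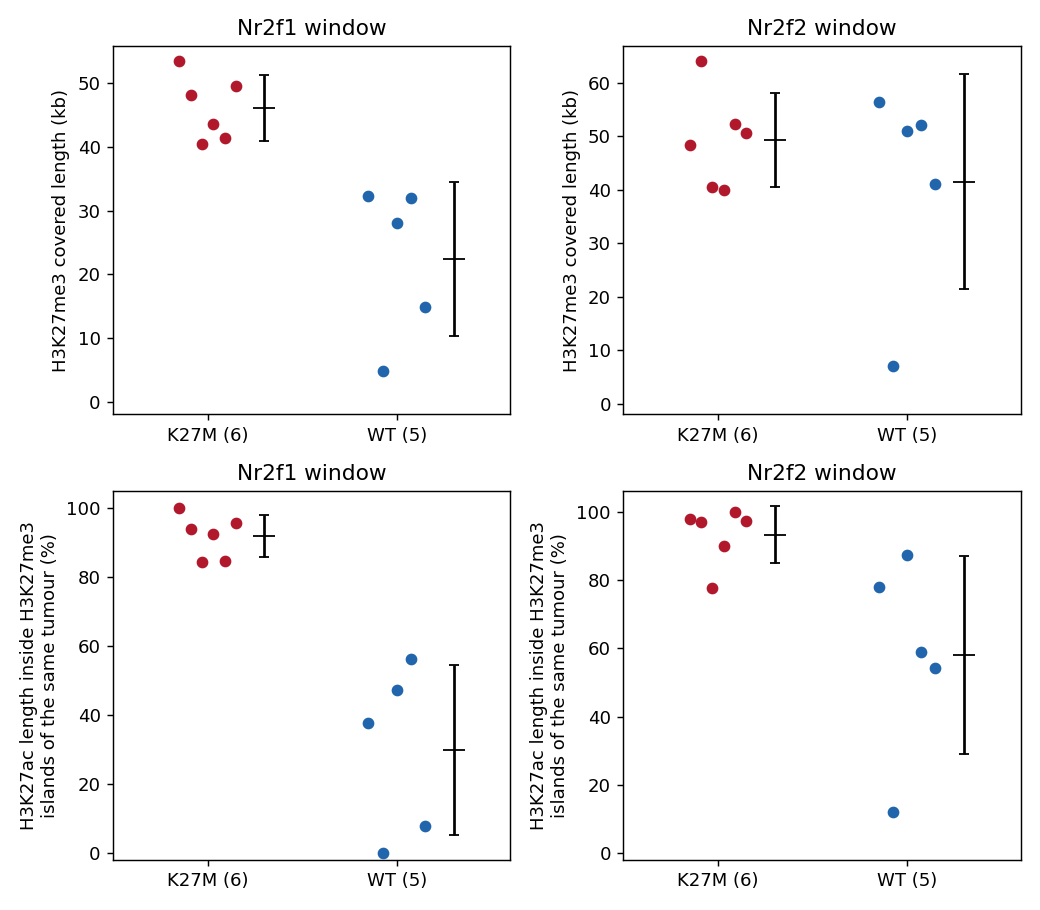
H3K27me3 covered length in kb (top) and the percent of H3K27ac peak length inside H3K27me3 islands of the same tumour (bottom) in both windows, 1 point per tumour with the mean and SD beside each group (6 K27M, 5 WT). At Nr2f1 every K27M tumour lies above every WT tumour in both measures, and at Nr2f2 the groups overlap.

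No correlation between the covered lengths of H3K27me3 and H3K27ac passed its test. At Nr2f2 the lengths of the 2 marks over the 11 tumours gave Pearson r = -0.06 (permutation p = 0.866) and Spearman rho = -0.15 (permutation p = 0.656), each 0.866 after adjustment over 4 correlations. Without the 2 tumours farthest from the median H3K27me3 length, r was -0.09 over 9 tumours (exact permutation p = 0.827). At Nr2f1 the 11 tumours gave r = 0.57 (permutation p = 0.0700) and rho = 0.51 (permutation p = 0.114), each 0.227 after the same adjustment, and r = 0.53 over 9 tumours without the 2 farthest (exact permutation p = 0.142). The H3K27me3 lengths of the genotypes do not overlap there, so the 11 values also carry the genotype difference. Among the 6 K27M tumours alone r was 0.64 (exact permutation p = 0.161) and rho 0.66 (exact permutation p = 0.175). With each length as a share of its list's total, Nr2f1 gave r = 0.60 (permutation p = 0.0505) and rho = 0.66 (permutation p = 0.0314, not adjusted).

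Across the 9 neurosphere libraries, the region whose log2 reads followed Nr2f1 most closely was chr3:51879201-51915800 (Pearson r = 0.98), followed by chr1:191986601-192004000 (0.98) and chr10:44238401-44260400 (0.96), among 2364 regions called in all 9. Nr2f2 came 10th, at r = 0.95. For Nr2f2 the closest were chr5:106977201-107009800 (0.99), chr3:30385201-30429000 (0.98) and again chr10:44238401-44260400 (0.97). These correlations are descriptions over libraries that share the forebrain to hindbrain contrast. Across the 11 tumours the closest region was chr11:33064401-33124600 for Nr2f1 (r = 0.95) and chr4:123808201-123832400 for Nr2f2 (r = 0.95), and Nr2f1 and Nr2f2 themselves correlated at 0.89. Without WT tumour 8 these values were 0.85, 0.78 and 0.39 over 10 tumours, so the likeness of the 2 loci across tumours rested on that tumour.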

How the data were processed

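The members and lists were chosen with earlier results of these data known. Per the labels' protocols, fly (Drosophila S2) chromatin was spiked in, and no spike-in scale was used here. Build mm9 is named in the submitters' processing notes, as are SICER 1.1, MACS2, bedtools 2.25.0, BWA 0.7.12, SAMtools, Picard and R 2.14.0, without their roles. Each of the 36 lists came from 1 sample, and the 23 input samples were not analysed here.

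The authors' deposited H3K27me3 lists give a count of reads per island, called, per the file names, with windows of 200 bp and gaps up to 600 bp. The deposited H3K27ac and H3K4me3 lists give each peak a score, a fold enrichment ratio and -log10 p and q values, of which only -log10 q (2 or more in every list) was used, for ranks and thresholds inside each list. Island lists hold neither total depth nor background. Intervals were clipped to the windows and reads taken in proportion. Intervals of all libraries were merged where they shared 1 bp. Summed reads of regions called in every library entered a quasi-likelihood fit of edgeR 4.0.16 in R 4.3.3, with TMM factors, Benjamini-Hochberg adjustment and a threshold of 0.05, and DESeq2 1.42.0 was an alternative. Single values were compared by two-sided exact permutation tests in Python 3.11.15, and calls by Fisher's exact test. Correlations over 11 tumours used 100000 permutations. On simulated tumour counts (3067 regions) the edgeR fit recovered 96% of 4-fold and 31% of 2-fold changes. The counts were drawn with the same dispersion for all regions and no outlying tumour, so these rates do not describe the 2 loci themselves.

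Regions named are those of the windows, the 3 H3K27ac sites of highest mean rank per window and the regions most like each locus, of which 3 are printed for neurospheres and 1 for tumours. Experiment ids in the labels pair the neurosphere libraries. As a check, each culture's departure from its group was correlated with that of its partner, which gave 0.20, 0.24 and 0.21 for the 2 brain regions and 0.10, -0.03 and 0.02 for the 2 hindbrain genotypes. Promoter sequences are from RefSeq (GRCm38.p6).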

Additional observations from a re-analysis of the deposited data

Results flagged for a closer look

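WT tumour 8 stood far below the other 4 WT tumours in H3K27me3 reads at both loci. Its log2(RPM + 1) was 4.45 at Nr2f1 and 5.06 at Nr2f2, against WT group medians of 6.98 and 8.07. The gap to the next tumour was 0.811 and 0.714 of the group's range, above the limit of 0.710 for 5 samples. Chance alone flags about 1 in 20 groups. The same tumour had 185 Mb of islands, where WT tumours ran from 136 to 347 Mb, and its H3K27ac length was 15.0 kb at Nr2f1 and 9.73 kb at Nr2f2, the longest of the WT group at Nr2f2.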

How the results depend on the processing

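Among female tumours (2 K27M, 4 WT, smallest possible exact permutation p 0.0667) 4 calls were lost while keeping their direction: Nr2f1 covered length (24.6 kb), Nr2f1 log2 RPM (2.35), and the share of H3K27ac in islands at Nr2f1 (64.8 points) and Nr2f2 (47.8 points). Nr2f2 H3K27ac length, whose unadjusted exact p of 0.0260 did not pass the adjustment, was 2.17 kb there (exact permutation p = 0.333). In the same tumours the Nr2f1 read fold was 1.56 and no longer called. It was 1.67 over regions called in at least 3 tumours and, with equal numbers of top-ranked islands and that filter, a setting chosen after seeing the data, 1.85 (edgeR adjusted p = 0.689). With top-ranked islands alone the main regions of both loci were not called in WT tumour 8, so no value resulted. Leaving out 1 tumour each, the Nr2f1 read fold ran from 1.20 to 1.64 and lost the call in some, and Nr2f2 H3K27ac length ran from 2.06 to 3.09 kb, with an unadjusted p above 0.05 in some. Nr2f2 covered length ran from -0.83 to 11.5 kb and reversed without WT tumour 8. The Nr2f2 correlation reversed to 0.13 as shares of list length and to 0.22 in K27M tumours alone. Without TMM factors Nr2f1 in hindbrain cultures moved to -0.82.

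Tumour regions called numbered 218 higher and 143 lower with TMM, 158 and 300 without it, 339 and 295 with DESeq2, 88 and 3 over regions in at least 3 tumours and 0 and 0 in female tumours. With experiment as a replicate block the forebrain over hindbrain folds were 6.02 (Nr2f1) and 4.31 (Nr2f2), and the K27M over WT hindbrain folds 0.14 and -0.16, and the block turned no direction at either locus. The other 215 values kept direction and side of the threshold or, where no test was made, moved by less than the spread between replicates. No spike-in scale was used, so absolute amounts of a mark are not measured.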
